A study of Rattus norvegicus with 6 samples.

Results

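The endothelin pathway was described here as 7 genes picked by symbol from the table of all genes: the ligand genes Edn1, Edn2 and Edn3, the receptor genes Ednra and Ednrb, and the converting enzyme genes Ece1 and Ece2. All 7 were among the 19828 entries of the table, and 6 of them were among the 15386 genes tested, those that reached a value of 1 in 3 or more libraries. The samples were total lung of Sprague-Dawley rats, 3 from Ahr-knockout (Ahr-KO) rats and 3 from wild-type (WT) rats, all of them under Sugen-Hypoxia (SuHx) and taken at day 56. The product of Ahr, the aryl hydrocarbon receptor, is a transcription factor switched on by small molecules. Sugen blocks VEGF receptors and, combined with low oxygen, gives a rat model of pulmonary arterial hypertension. Both groups carried the treatment, so what was compared is the endothelin genes of treated lungs labelled Ahr-KO and WT, and no untreated lung stands beside them. The sources used here do not give the kind or position of the Ahr edit. Nor do the labels tie each sample to an animal of its own, so a p-value measures the spread between these libraries, which may be technical.

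Endothelins are short peptides that constrict vessels. Endothelial cells make endothelin-1 as a long precursor, which furin-type proteases and then endothelin-converting enzymes cut to the active peptide. The ETA receptor, encoded by Ednra, sits on vascular smooth muscle and couples through Gq proteins and phospholipase C to calcium release and contraction. The ETB receptor, encoded by Ednrb, sits mainly on endothelium, where it triggers nitric oxide and prostacyclin release and takes up circulating endothelin-1, and also on some smooth muscle. Drugs that block these receptors are used to treat pulmonary arterial hypertension.

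The deposited values were normalised read counts, with an estimated depth of 14.2 to 23.6 M reads in the Ahr-KO libraries and 12.9 to 21.9 M in the WT libraries. Libraries go by their column numbers, 0 to 2 in each group. Ahr itself stood at 2399, 3923 and 3575 in Ahr-KO libraries 0, 1 and 2, against 2939.96, 2860.39 and 3395 in the WT libraries, and the groups overlapped (adjusted p = 0.81). A value summed over a whole gene does not check an edit of part of it. Cyp1a1, a P450 gene induced by the receptor, was at 10.5, 0.83 and 1.36 in the Ahr-KO libraries and at 27085, 23512 and 37694 in the WT libraries. Markers of lung were abundant, with the 7 alveolar type 2 markers summing to 644671 to 756876 in Ahr-KO and to 516498 to 588777 in WT. Across all genes tested, limma called 692 higher and 963 lower in Ahr-KO at a Benjamini-Hochberg adjusted p under 0.05. The values of a library summed to 18.9 to 19.3 M in Ahr-KO and to 17.8 to 18 M in WT. Rescaled to equal library totals, they gave 448 higher and 1314 lower.

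None of the 6 tested endothelin genes passed the test, where 10.8% of all tested genes did (4.50% higher and 6.26% lower in Ahr-KO). The lowest adjusted p was that of Ednrb (0.10). Edn3, Ednrb, Ece1 and Ece2 had positive log2 fold changes (Ahr-KO over WT) and Edn1 and Ednra negative ones. At an unadjusted p under 0.05 stood 2 of the 6, Edn3 and Ednrb, against 27.9% of all genes. The 3 values of each group lay apart for 1 of the 6, Ednrb, against 34.3% of all genes. The median log2 fold change of the 6 was 0.16, beside 0.01 over all genes tested. Limma-voom called 0 of the 6 as well. In whole lung, fewer cells of a type and less RNA per cell cannot be told apart.

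The promoters of the receptor genes, of Edn1 and of Ece1 are printed because the genotype compared is that of a DNA-binding receptor. They run from 250 bases before to 50 bases after the start site in RefSeq's GRCr8 assembly, which is a later build than the rn6 named in the submitters' processing notes. Capitals mark 3 motifs searched on both strands. The aryl hydrocarbon receptor with its partner ARNT binds the core GCGTG. Hypoxia-inducible factors bind the core ACGTG. GATA factors bind AGATAA.
Edn1, chr17:22666638-22666937, minus strand: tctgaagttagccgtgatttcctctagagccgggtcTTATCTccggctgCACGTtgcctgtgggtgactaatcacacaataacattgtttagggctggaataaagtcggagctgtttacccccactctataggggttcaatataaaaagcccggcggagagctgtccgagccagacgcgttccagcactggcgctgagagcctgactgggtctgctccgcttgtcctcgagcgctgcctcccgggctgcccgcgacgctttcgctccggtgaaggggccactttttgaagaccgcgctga
Ednra, chr19:47137674-47137973, plus strand: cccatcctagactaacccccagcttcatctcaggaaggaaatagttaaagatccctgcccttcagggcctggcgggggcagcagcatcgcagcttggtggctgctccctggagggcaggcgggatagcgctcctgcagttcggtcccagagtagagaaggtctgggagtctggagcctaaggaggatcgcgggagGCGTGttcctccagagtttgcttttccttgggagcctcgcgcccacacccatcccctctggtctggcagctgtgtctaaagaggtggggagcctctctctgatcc
Ednrb, chr15:87086716-87087015, minus strand: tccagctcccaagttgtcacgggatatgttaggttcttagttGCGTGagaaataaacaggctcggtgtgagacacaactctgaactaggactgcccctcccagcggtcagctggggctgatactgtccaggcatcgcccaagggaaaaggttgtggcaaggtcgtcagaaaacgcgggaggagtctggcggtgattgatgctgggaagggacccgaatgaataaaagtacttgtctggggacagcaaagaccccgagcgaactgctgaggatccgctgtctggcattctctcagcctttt
Ece1, chr5:155360781-155361080, plus strand: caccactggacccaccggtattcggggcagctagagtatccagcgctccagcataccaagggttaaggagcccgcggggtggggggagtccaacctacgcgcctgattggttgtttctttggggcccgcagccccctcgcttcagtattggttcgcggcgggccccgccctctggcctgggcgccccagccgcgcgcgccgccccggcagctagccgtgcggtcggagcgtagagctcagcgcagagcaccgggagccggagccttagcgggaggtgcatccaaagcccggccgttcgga
The GCGTG core stood once in the Ednra promoter, at -55 to -51 from the start site, and once in the Ednrb promoter, at -208 to -204. The other 4 promoters of the 6 found (Edn1, Edn2, Ece1 and Ece2) did not hold these letters. Of all 33469 rat promoters of this length, 29.7% held GCGTG. The hypoxia core ACGTG stood in the Edn1 promoter on the reverse strand, at -201 to -197, and in 19.3% of all promoters. The GATA motif AGATAA also stood there on the reverse strand, at -214 to -209, and in 11.6% of all promoters. None of these matches overlapped another, and a match describes letters and does not by itself show whether the site is bound. Of the genes with a GCGTG core, Ednra had a fold change below 0 and Ednrb one above 0, neither past the test. A link between the motif and these values was not tested.

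**Figure D1:**
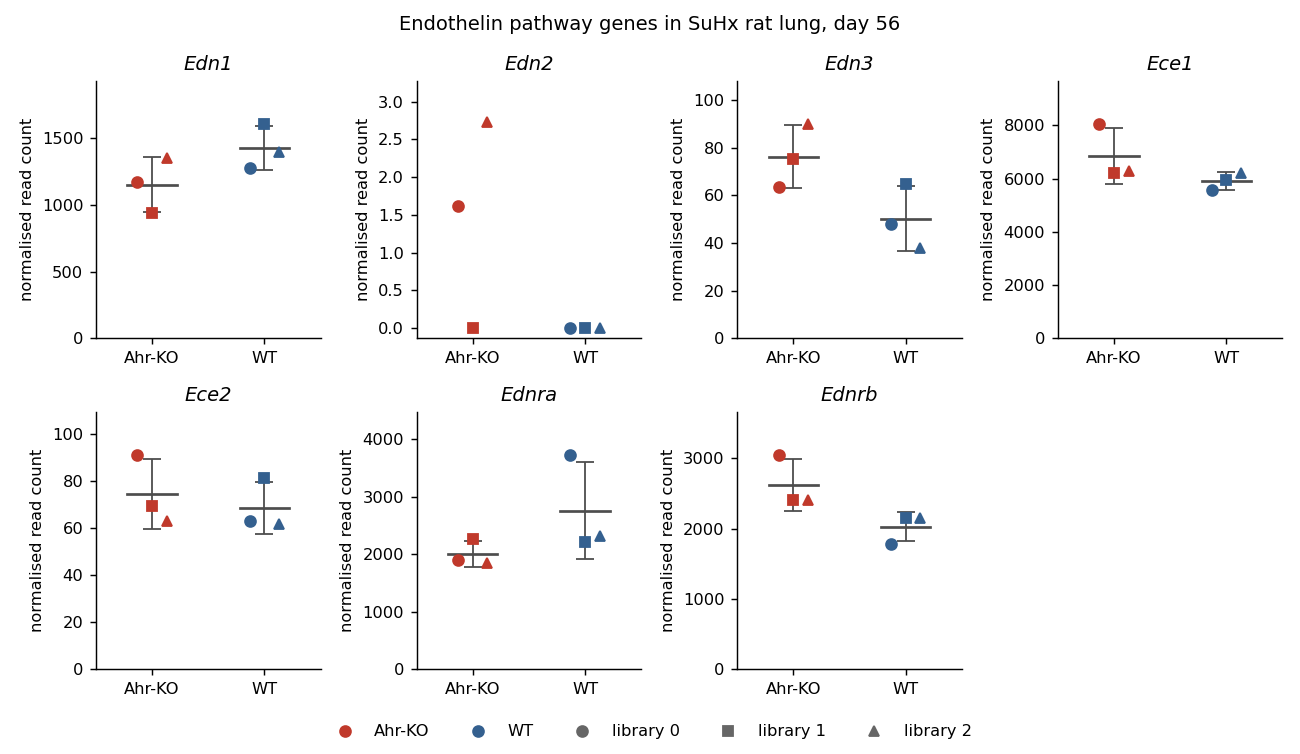
Normalised read counts of the 7 endothelin pathway genes in each library, with Ahr-KO on the left and WT on the right of each panel; symbols give the library number, lines the group mean and bars the SD (n = 3 libraries), left out for Edn2. The groups lie apart for Ednrb, where the Ahr-KO libraries sit between 2412 and 3053 and the WT libraries between 1787 and 2157, and overlap for the other 5 tested genes.

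Among the ligands, Edn1, which encodes the endothelin-1 precursor, had values of 1173, 938 and 1349 in Ahr-KO libraries 0, 1 and 2 and of 1279.55, 1608 and 1396 in the WT libraries. The highest Ahr-KO library lay above the lowest WT library, so the groups overlapped. The means were 1153 ± 206 in Ahr-KO and 1428 ± 167 in WT (SD, n = 3 each). The log2 fold change was -0.32 ± 0.15 (SE), with a 95% interval of -0.66 to 0.03 (limma, adjusted p = 0.21). On the linear scale that interval runs from 0.632-fold to 1.02-fold. Without Ahr-KO library 1, the lowest of the 6, the fold change was -0.18 (adjusted p = 0.51).

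Edn3 encodes endothelin-3, which binds ETB more tightly than ETA and is best known for its role in neural crest cells. It was read at 63.7, 75.2 and 90.03 in the Ahr-KO libraries, against 48.0, 64.9 and 37.8 in the WT libraries. Only Ahr-KO library 0 and WT library 1 crossed over. The log2 fold change was 0.61 ± 0.27, with a 95% interval of 0.0015 to 1.23 before correction for the number of genes (unadjusted p = 0.0496, adjusted p = 0.18). These values rest on 27 to 91 reads a library, where counting error alone is about 12.4% of the value, against an SD of 17.3% of the mean in Ahr-KO and 27.3% in WT. Without both libraries numbered 2, the shallowest of each group, the fold change was 0.31 (adjusted p = 0.51). After quantile normalisation of all libraries it was 0.85 (limma, adjusted p = 0.095).

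Edn2, the gene of endothelin-2, was near the limit of detection. It stood at 1.61 and 2.73 in Ahr-KO libraries 0 and 2, each worth 2 reads, and was listed at 0 in Ahr-KO library 1 and in the 3 WT libraries. It was below the filter, and no fold is given for it.

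Neither converting enzyme gene passed the test, and both overlapped between the groups. Ece1, the membrane metalloprotease that makes most endothelin-1, had values of 8058, 6199.95 and 6289 in the Ahr-KO libraries and of 5572, 5936 and 6219 in the WT libraries. Ahr-KO library 0 was the high one, and the other two lay close to WT library 2. The means were 6849 ± 1048 in Ahr-KO and 5909 ± 324 in WT. The log2 fold change was 0.20 ± 0.12, its 95% interval -0.07 to 0.48 (limma, adjusted p = 0.31). Without Ahr-KO library 0 the fold change was 0.08. Ece2, a related protease that works at acidic pH inside cells, stood at 91.1, 69.4 and 62.8 in Ahr-KO and at 63.0, 81.3 and 61.6 in WT. Its log2 fold change was 0.11 ± 0.23, with a 95% interval of -0.42 to 0.64 (limma, adjusted p = 0.80), and it turned to -0.04 without Ahr-KO library 0.

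Of the receptors, Ednra was read at 1889.9, 2255 and 1840.2 in the Ahr-KO libraries, against 3726, 2217 and 2315 in the WT libraries. WT library 0 stood far above the other 5 libraries, and Ahr-KO library 1 lay between the lower 2 WT libraries. The means were 1995 ± 227 in Ahr-KO and 2753 ± 844 in WT. The log2 fold change was -0.43 ± 0.20, its 95% interval -0.88 to 0.03 (limma, adjusted p = 0.20). Without WT library 0 the fold change was -0.19 (adjusted p = 0.39).

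Ednrb had values of 3053, 2412 and 2416 in the Ahr-KO libraries, against 1787, 2148 and 2157 in the WT libraries. Each Ahr-KO library lay above each WT library, as was so for 17.0% of all tested genes. The means were 2627 ± 369 in Ahr-KO and 2031 ± 211 in WT. The log2 fold change was 0.37 ± 0.13, with a 95% interval of 0.08 to 0.66, or 1.05-fold to 1.58-fold (limma, unadjusted p = 0.0195, adjusted p = 0.10). Over 16 alternative fits the fold change stayed between 0.25 and 0.47 and the adjusted p between 0.094 and 0.25. The gene had 1542 to 3788 reads a library, so counting error (about 2.0% of the value) is small beside the spread between libraries.

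**Figure D2:**
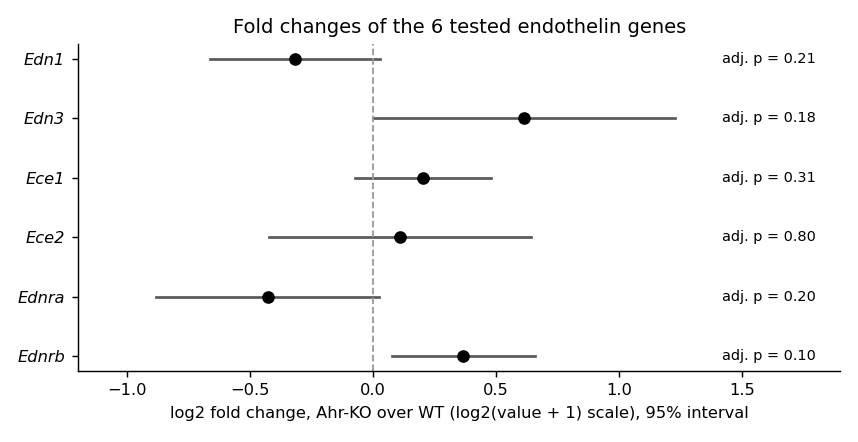
Log2 fold changes of the 6 tested endothelin pathway genes, Ahr-KO over WT on the log2(value + 1) scale; points are estimates, lines 95% intervals and the text the adjusted p of limma. The intervals of Edn1, Ednra, Ece1 and Ece2 include 0, those of Edn3 and Ednrb start at 0.0015 and 0.08, and no adjusted p is below 0.10.

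Ratios within a library do not depend on its scaling, and gene length cancels in their difference between groups, though not in their level. The log2 ratio of Ednra to Ednrb was -0.69, -0.10 and -0.39 in Ahr-KO libraries 0, 1 and 2, against 1.06, 0.05 and 0.10 in the WT libraries. All Ahr-KO libraries were below all WT libraries, by a narrow gap between Ahr-KO library 1 and WT library 1 and a wide one to WT library 0. The groups differed by -0.80 (mean -0.39 ± 0.30 in Ahr-KO and 0.40 ± 0.57 in WT, SD, n = 3 each), and by -0.47 without WT library 0. The log2 ratio of Edn1 to Ece1 was -2.78, -2.72 and -2.22 in Ahr-KO and -2.12, -1.88 and -2.15 in WT, a difference of -0.52. Here too the groups lay apart, with Ahr-KO library 2 close to WT library 2. The ratio of Edn1 to Ednrb was also lower in each Ahr-KO library than in each WT library, by -0.68 on average. That of Edn1 to Ednra overlapped between the groups (difference 0.11), as did that of Edn3 to Ednrb (0.25). Among all pairs of tested genes, the ratio separated the groups for 34.0%. It did so for 3 of these 5, which share genes with each other, and for 3 of all 12 ratios formed. The rest of the 12 set a gene against the mean of a marker list, for which no share over all genes was computed. The ratios of Ednra to Ednrb and of Edn1 to Ece1 were planned, and the others were added after seeing the data. An exact permutation test of 3 against 3 libraries cannot go below a 2-sided p of 0.1, and no test was run on the ratios.

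**Figure D3:**
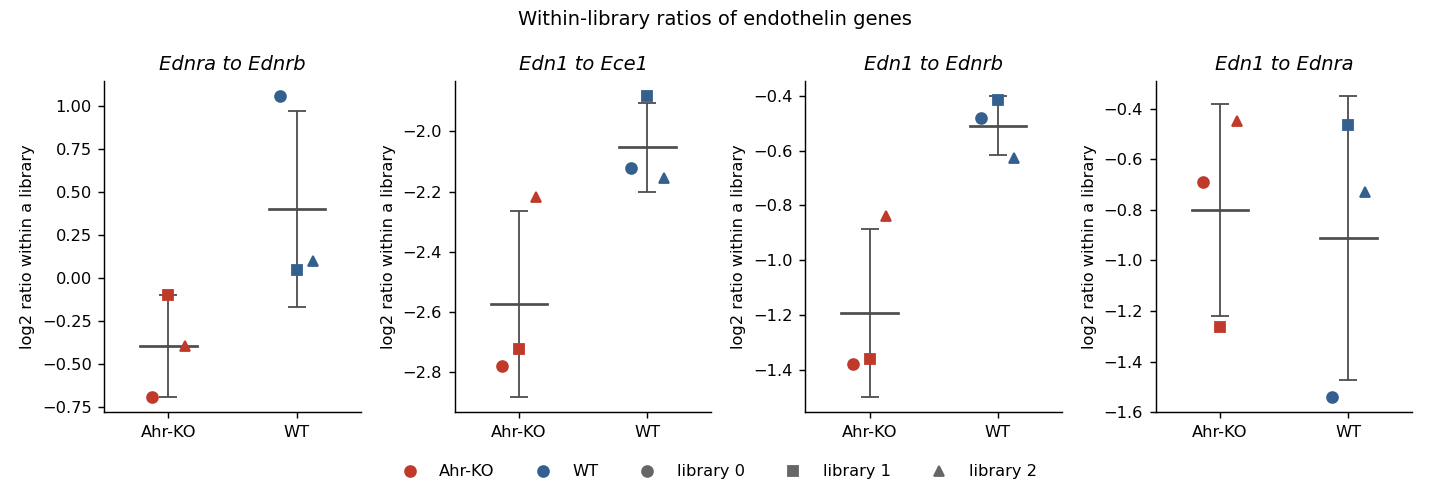
Log2 ratios of 2 endothelin pathway genes within each library, with Ahr-KO on the left and WT on the right; symbols give the library number, lines the mean and bars the SD (n = 3 libraries). The Ahr-KO libraries lie below the WT libraries for Ednra to Ednrb, Edn1 to Ece1 and Edn1 to Ednrb, and overlap with them for Edn1 to Ednra.

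Markers of the cells that carry these genes are given beside them. A marker is said to rise or fall where it passed the test, as 4.50% of all tested genes did upward and 6.26% downward. In mouse lung, Ednrb marks the thin capillary endothelial cells called aerocytes. Of 8 aerocyte markers, 3 rose past the test in Ahr-KO and none fell past it, with a median log2 fold change of 0.31. The fold change was below 0 for Fibin (-0.48) and Chst1 (-0.09), named after their values were seen, and above 0 for the rest. Prx, the gene of periaxin, was at 7336 ± 1014 in Ahr-KO and 3006 ± 540 in WT (adjusted p = 0.0054). Car4, a carbonic anhydrase anchored on capillary endothelium, was at 2969.6 ± 552 in Ahr-KO and 1241 ± 264 in WT (adjusted p = 0.0091). Emp2, a membrane protein gene that alveolar type 1 cells also express strongly, rose 1.63-fold (adjusted p = 0.015), a call lost when WT library 0 or either of Ahr-KO libraries 1 and 2 was left out. The 8 markers summed to 60535 to 67577 in Ahr-KO and to 40426 to 44234 in WT. Emp2 alone made up 34888 to 38480.0 of that in Ahr-KO and 19963 to 24530 in WT, and alveolar type 1 markers rose in 4 of 6 cases. The other 7 markers summed to 25227 to 29316 in Ahr-KO and to 16280.0 to 21160 in WT, a split made after seeing the data. Set against the mean log2 of these markers in the same library, Ednrb was at 0.0029, -0.45 and -0.33 in Ahr-KO and at -0.54, -0.26 and 0.22 in WT. The groups overlapped, and their difference was -0.06 (-0.02 without Emp2), against 0.37 for Ednrb alone.

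Of 12 pan-endothelial markers, 2 rose and 1 fell, with a median of 0.25 and sums of 109013 to 112447 in Ahr-KO and 74628 to 91145 in WT. Tek, the angiopoietin receptor TIE2, rose 1.85-fold (adjusted p = 0.016, lost without WT library 0 or Ahr-KO library 1). The adhesion molecule gene Pecam1 rose by 0.58 on the log2 scale (adjusted p = 0.044) and the sialomucin gene Emcn fell 1.28-fold (adjusted p = 0.042). The calls of Pecam1 and Emcn held in 4 and 8 of 16 alternatives. Relative to these markers, Edn1 was at -1.80, -2.34 and -1.45 in Ahr-KO and at -1.57, -1.32 and -1.01 in WT on the log2 scale. The difference was -0.56, and the groups overlapped through Ahr-KO library 2 and WT library 0. On the same scale Ednrb differed by 0.12 and Ece1 by -0.04, with overlap in both.

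Ednra is carried by smooth muscle, pericytes and fibroblasts. None of 11 smooth muscle markers passed the test, at a median of 0.36, and 4 had all Ahr-KO libraries above all WT libraries, as was so for 17.0% of all tested genes. The fold change was above 0 for 7 and below 0 for 4, which were Acta2 (smooth muscle actin, log2 -0.16), Mylk (-0.10), Smtn (-0.05) and Des (-0.04), named after their values were seen. The lowest p-values were those of Myh11, the smooth muscle myosin heavy chain (14850.2 ± 3582 in Ahr-KO and 9368 ± 2044 in WT, adjusted p = 0.085), Lmod1 (adjusted p = 0.089) and Tagln (adjusted p = 0.12), which had fold changes above 0. The 11 markers summed to 42816 to 62304 in Ahr-KO and 33965 to 46021 in WT. Set against these markers, Ednra was at 0.04, 0.24 and -0.58 in Ahr-KO and at 0.98, 0.60 and 0.21 in WT. That difference of -0.69 was larger than the -0.43 of Ednra alone, and the groups overlapped through Ahr-KO library 1 and WT library 2.

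Of 10 fibroblast markers, 3 fell and none rose, with a median of -0.60. They were the collagen genes Col1a1 (3639 ± 379 in Ahr-KO and 9507 ± 1545 in WT, adjusted p = 0.0034) and Col3a1 (1.57-fold lower, adjusted p = 0.020) and Pi16 (2.41-fold lower, adjusted p = 0.020), a marker of adventitial fibroblasts. The calls of Col3a1 and Pi16 were lost when WT library 0 or either of Ahr-KO libraries 1 and 2 was left out, and that of Col3a1 also without WT library 1. The list summed to 34173 to 43344 in Ahr-KO and to 53058 to 64106 in WT. Relative to it, Ednra differed by 0.27, with overlap. Of 9 pericyte markers, 1 fell, the G protein signalling regulator Rgs5 (2.41-fold, adjusted p = 0.016, lost when WT library 1 or either of Ahr-KO libraries 1 and 2 was left out), and the median was -0.13. Cspg4, the gene of the proteoglycan NG2, had the opposite sign, at 1617, 1184 and 1419 in Ahr-KO and 1061, 1049.6 and 1069 in WT. Those groups lay apart (log2 fold change 0.40, adjusted p = 0.076). Kcnj8, a potassium channel gene, overlapped between the groups (-0.49, adjusted p = 0.25). The list summed to 9368 to 10953 in Ahr-KO and 8881 to 11037 in WT, and Ednra differed from its mean by -0.24, with overlap. The part of these cell types in the endothelin gene values was not tested.

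**Figure D4:**
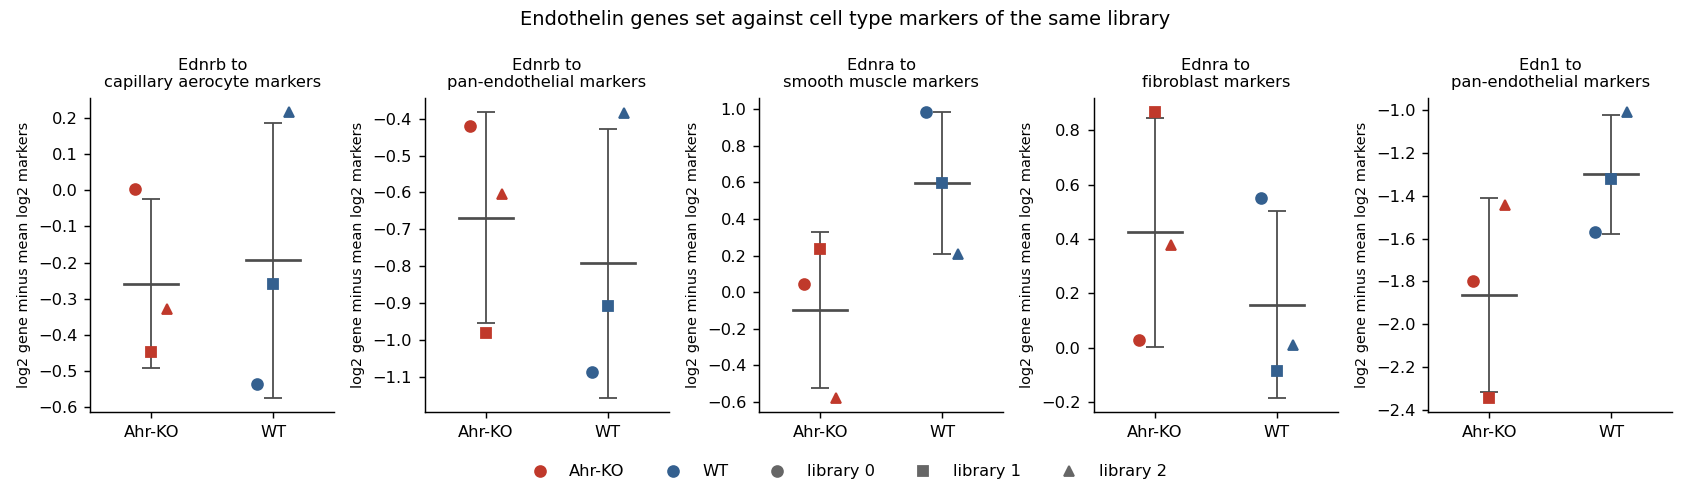
Log2 value of an endothelin gene minus the mean log2 value of a list of cell type markers in the same library, with Ahr-KO on the left and WT on the right; symbols give the library number, lines the mean and bars the SD (n = 3 libraries). The groups overlap in every panel, and the means differ most for Ednra against smooth muscle markers (-0.69) and Edn1 against pan-endothelial markers (-0.56).

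A further list held proteases that cut endothelin precursors or break the peptides down, and relatives such as Ecel1. None of its 9 tested genes passed (1 further gene of the list, Mmel1, was below the filter), with a median of -0.22. Furin, the first protease of the chain, was at 4319 ± 187 in Ahr-KO and 4032 ± 196 in WT, a log2 fold change of 0.10 ± 0.08 (adjusted p = 0.48). The related convertase Pcsk5 was at 413, 408 and 473 in Ahr-KO and at 579, 554 and 536 in WT. Those groups lay apart (adjusted p = 0.071), and the test was passed with equal library totals (0.034) and with limma-voom (0.028). Ctsa, the lysosomal carboxypeptidase that inactivates endothelin-1, had an adjusted p of 0.18, and Ecel1, named for its likeness to the converting enzymes, one of 0.15.

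Over the 5 lists of genes around the pathway, 8 of 73 tested genes passed (10.96%), close to the 10.8% of all tested genes. Of 23 tested genes of endothelin receptor signalling, 3 rose, 1 fell and 19 did not pass, with a median of -0.05. Of all tested genes, 4.50% rose and 6.26% fell. The list held genes of calcium release and of contraction, and also genes that damp the signal of the receptors. The phospholipase C gene Plcb4 was at 4168, 3709.9 and 3506 in Ahr-KO, against 1969, 1838 and 2207 in WT, a log2 fold change of 0.92 ± 0.11 (adjusted p = 0.0046). Each Ahr-KO library was far above each WT library, and the call held in all 16 alternative fits. Its relative Plcb1 was at 315, 272 and 231 in Ahr-KO and at 749.7, 447 and 574 in WT, a log2 fold change of -1.09 ± 0.21 (adjusted p = 0.018). That call was lost without Ahr-KO library 1 (0.060) or Ahr-KO library 2 (0.077). The calcium release channel gene Itpr3 rose 1.46-fold (adjusted p = 0.036), a call lost when any 1 library other than WT library 2 was left out. It was also lost with equal library totals (0.053) and limma-voom (0.052), and held in 7 of 16 alternatives. Plcb3 rose 1.29-fold at an adjusted p of 0.0496, which passed in 1 of 16 alternatives. The Gq protein genes Gnaq and Gna11, which couple both receptors to phospholipase C, and the contraction genes Rhoa, Rock1 and Rock2, named for these roles after their values were seen, did not pass (lowest adjusted p = 0.47).

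Among 18 genes known to regulate Edn1 transcription, 1 rose and 1 fell, with a median of -0.10. Tgfb1, the growth factor that induces Edn1 through SMAD3, was at 715, 703 and 701 in Ahr-KO and at 1528, 1583 and 1202 in WT. The groups lay far apart (log2 fold change -1.01 ± 0.12, adjusted p = 0.0051), and the call held in all 16 alternatives. Gata6 rose 1.57-fold (adjusted p = 0.046), a call lost when any 1 library other than Ahr-KO library 0 was left out. It was also lost with equal library totals (0.072) and limma-voom (0.077), and held in 4 of 16 alternatives. Gata2, the GATA factor of endothelium, was at 4724 ± 607 in Ahr-KO and 2930.1 ± 767 in WT (adjusted p = 0.061), and Pparg had an adjusted p of 0.090.

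Of 10 tested receptor genes for other constrictors, 1 fell and none rose, with a median log2 fold change of -0.75. The fold change was above 0 for Tbxa2r (0.15) and below 0 for the others. Agtr1a, the highest in value, was at -0.08 (718 ± 48 in Ahr-KO and 760 ± 93 in WT). Htr2a, the lowest in value, stood at 1.63 ± 2.17 in Ahr-KO and 4.15 ± 2.48 in WT. Tbxa2r, Agtr1a and Htr2a were named after their values were seen. The prostaglandin F receptor gene Ptgfr was at 20.1, 24.0 and 19.1 in Ahr-KO and at 49.0, 50.1 and 61.6 in WT (2.47-fold lower, adjusted p = 0.018). That call was lost without any 1 library other than WT library 2 or Ahr-KO library 0 (adjusted p up to 0.070). The adrenergic receptor gene Adra1d (adjusted p = 0.067) and the serotonin receptor genes Htr2b (0.10) and Htr1b (0.17) did not pass, though for each the 3 Ahr-KO libraries lay below the 3 WT libraries, as was so for 17.4% of all tested genes.

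Among genes of the opposing dilator pathways, 1 of 13 rose. This was Ramp2, the partner protein of the adrenomedullin receptor, at 8602, 8797 and 8945 in Ahr-KO and 5646, 5874 and 4495 in WT (log2 fold change 0.73 ± 0.11, adjusted p = 0.011). With Ahr-KO library 2 left out its adjusted p was 0.054. The receptor gene itself, Calcrl, was at 6029 ± 1091 in Ahr-KO and 3900.5 ± 763 in WT (adjusted p = 0.058), and the apelin receptor gene Aplnr at 4210.2 ± 645 in Ahr-KO and 2740.5 ± 659 in WT (adjusted p = 0.067). Nos3, the endothelial nitric oxide synthase that ETB signalling activates, was at 753, 760.3 and 749 in Ahr-KO and at 884, 1254 and 997 in WT. The groups lay apart, with an adjusted p of 0.068 that came to 0.037 with equal library totals and 0.039 with limma-voom.

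**Figure D5:**
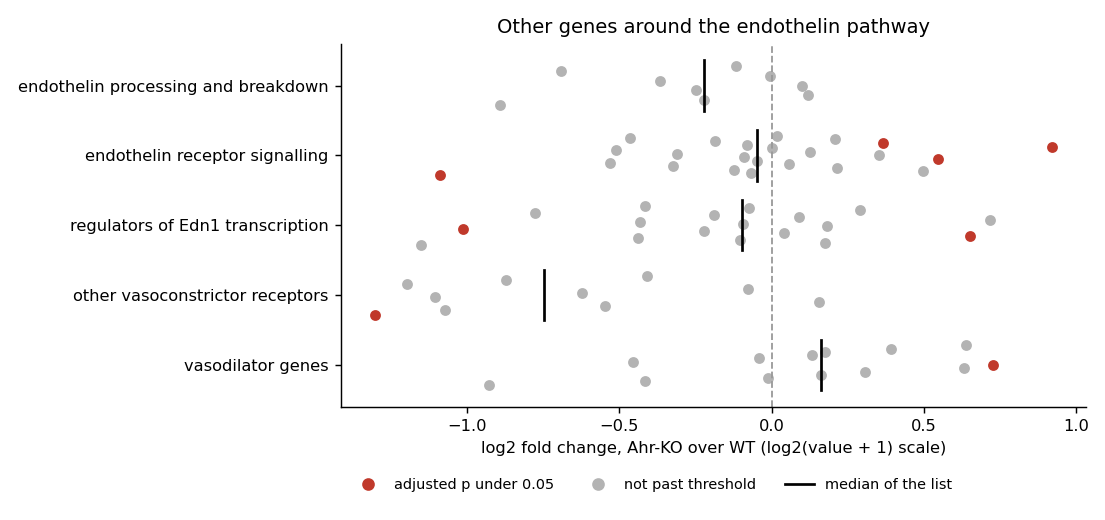
Log2 fold changes, Ahr-KO over WT on the log2(value + 1) scale, of the tested genes of 5 lists around the endothelin pathway; each point is a gene, coloured where the adjusted p was under 0.05, and black lines are list medians. The 8 coloured genes are Plcb4, Itpr3, Plcb3, Gata6 and Ramp2 above 0 and Plcb1, Tgfb1 and Ptgfr below 0, and the list of other constrictor receptors has its median at -0.75.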

How the data were processed

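Total RNA of rat lung was profiled by bulk RNA-seq in 3 Ahr-KO and 3 WT libraries. Per the submitters' processing notes, FastQC was among the tools and rn6 was the genome build; for the aligner, counter, annotation and strandedness, the entry is "not given in the sources used here". As deposited, the table holds a normalised signal for each gene symbol in each library. In each library 97.4% to 97.9% of values above 0 were whole multiples, to within 0.05, of a step taken as the worth of 1 read; reads and depth quoted here are values divided by that step, and counting error covers counting only. The remaining values were fractions, so no count model was the main test. Columns carried the genotype and the numbers 0 to 2, which match no single sample title, so they were assigned to groups. There were 0 unused columns of values. The lowest chi-square per gene between 2 libraries of a group was 15.4, so none was the same library sequenced again. This value covers counting error only and cannot tell whether 2 libraries came from the same animal.

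Values were taken as log2(value + 1), genes under 1 in 4 or more libraries were dropped, and limma 3.58.1 (R 4.3.3) compared the genotypes with a mean-variance trend and no other term. Adjustment of the 2-sided p-values (Benjamini-Hochberg) ran over the whole set of tested genes, and 0.05 was the threshold. Fold changes on this scale understate those of low genes. The code was tested on simulated data. The members and lists were chosen with earlier results of these data known. In all 24 gene lists (222 symbols, 216 in the table) were counted. Named genes are the 7 members, the 4 of lowest p and the called genes of each pathway list, and the 3 of lowest p of cell type lists set beside a member. The nearest genes by profile were to be named for members past the threshold, which gave none. Of 12 ratios, 2 were planned and 10 added after seeing the data. Same-numbered libraries were checked for pairing through the correlation of their deviations from the group means. Alternatives were quantile normalisation, equal library totals, no trend, robust limma, no filter, a minimum of 10, a pseudocount of 0.1, limma-voom, the library number as a block, an adjusted p under 0.10 and each library left out; leaving out both libraries numbered 2, and Emp2 from the aerocyte markers, was added after seeing the data.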

Additional observations from a re-analysis of the deposited data

How the results depend on the processing

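The count of endothelin genes past the threshold was 0 under each of the 17 alternatives. With equal library totals the log2 fold changes were -0.41 for Edn1, -0.52 for Ednra and 0.52 for Edn3. In that fit they were 0.28 for Ednrb, 0.11 for Ece1 and 0.02 for Ece2. Over 96 single refits of the 6 tested genes, 0 passed an adjusted p of 0.05, and 1 changed sign, that of Ece2 at -0.044 without Ahr-KO library 0 (0.24 without WT library 1). Leaving out 1 library gave log2 fold changes of -0.44 to -0.18 for Edn1, 0.43 to 0.81 for Edn3, -0.56 to -0.19 for Ednra, 0.25 to 0.42 for Ednrb and 0.08 to 0.27 for Ece1. The Ednra to Ednrb difference was -0.97 to -0.47 and that of Edn1 to Ece1 -0.70 to -0.42 in the same fits. Ahr did not pass in any of these fits (limma, adjusted p of 0.16 to 0.99). Its log2 fold changes were -0.0123 after quantile normalisation, -0.0121 with equal library totals and -0.0120 with limma-voom. With 1 library left out they ran from -0.061 (without Ahr-KO library 1) to 0.29 (without Ahr-KO library 0).

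Over all genes, 1655 were called, and 952 without the trend, 553 without both libraries numbered 2, 2853 at an adjusted p under 0.10, and 407 (without Ahr-KO library 2) to 1834 (without WT library 2) with 1 library left out; 8 genes of the 5 pathway lists were called, and 5 without the trend, 4 without both libraries numbered 2 and 2 to 13 with 1 left out, again lowest without Ahr-KO library 2 and highest without WT library 2. The library number as a block gave 899 genes, 5 pathway list genes and 0 endothelin genes. Deviations of same-numbered libraries correlated at -0.10, 0.07 and -0.07, and not every library correlated best with its own number. With 3 libraries a group, these correlations cannot decide whether the numbers pair the libraries. The cause of these changes was not tested. Depth limits Edn2 and, to a lesser degree, Edn3 and Ece2.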

Other observations

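WT library 0, the high one for Ednra, was also the highest WT library in 4 early response and flow-related transcription factor genes, named after their values were seen. Fos was at 143, 109 and 120.05 in the Ahr-KO libraries and at 561, 187 and 199 in WT libraries 0, 1 and 2. Klf4 was at 3016, 2887 and 2897 in Ahr-KO and at 5763, 3349.9 and 3257 in WT. Jun was at 4255, 3692 and 3897 in Ahr-KO and at 7274, 5554 and 3731 in WT. Klf2 was at 1567, 1145 and 1589 in Ahr-KO and at 2730.03, 1946 and 667 in WT. All 4 came from the list of Edn1 regulators, where Gata2 and Tgfb1 were highest in WT library 1 and Gata6 and Pparg in WT library 2. The share of all genes that were highest in WT library 0 was not counted. A link of Fos, Klf4, Jun and Klf2 to Ednra was not tested.

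Other cell types that lung samples can hold were counted by the same rule, beside 4.50% of all tested genes that rose and 6.26% that fell. In the general capillary list, 2 of 6 markers rose and 2 fell. Of the arterial markers 2 of 8 fell, of the venous 1 of 6 and of the lymphatic 3 of 6, with none rising. Of the airway epithelial markers 1 of 8 rose and 3 fell. Of 7 alveolar type 2 markers, 0 passed. Mast cell markers fell in 3 of 6 cases and leukocyte markers in 5 of 9, and 1 of 5 mesothelial markers rose. Of 6 neuroendocrine, 5 glial, 7 cardiac muscle and 6 red blood cell markers tested, none passed.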
